A study of Mus musculus with 4 samples.

Results

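Among the mature miRNAs held in the count files, mmu-miR-9-5p was the most abundant in every library of embryonic mouse forebrain analysed here. It was chosen by name, as 1 of the 1059 mature miRNAs in the count files, and it is 1 of the 274 that had at least 10 counts in at least 2 libraries and were tested. The libraries were made from small RNA of the front end of the telencephalic primordium, the tissue that forms the cerebral hemispheres, in E11.5 embryos. Rx-Dicer mutants carried Dicer alleles flanked by loxP sites (Dicer F/F, the Dicer1tm1Bdh allele, from a C57BL/6 background) and the Cre recombinase of Rx3-Cre mice (from a CD1 background), so Dicer is deleted only in cells of the Rx lineage, and cells outside that lineage keep it. Control littermates were Dicer F/F without Cre according to the series design, whereas the sample labels call them WT. There were 2 libraries of each genotype, given by the labels as separate samples, and the number of embryos per library is not given in the sources used here, so p-values measure the spread between these libraries only. Dicer1 mRNA is not measured in these files, so the deletion itself could not be checked in them.

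Dicer cuts the hairpin precursors of most miRNAs, and the mature strand is then loaded into an Argonaute protein, where bases 2 to 8, the seed, pair with target mRNAs. miR-9 is a miRNA of the central nervous system, expressed in neural progenitors and in young neurons, and its known targets include the progenitor regulators Nr2e1 (Tlx), Hes1 and Rest. Mature miRNAs can persist after their production has stopped, so a cell that has lost Dicer need not have lost the miRNAs it made earlier.

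The mature sequence and the hairpins from which it can be cut are shown because each count row of miR-9-5p belongs to one hairpin, and the shared mature strand is what the reads match. The sequences are from RefSeq on GRCm38.p6, the build also called mm10. In the mature strand the capitals mark the seed, and in the hairpins they mark the mature strand.
miR-9-5p: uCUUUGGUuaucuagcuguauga
Mir9-1: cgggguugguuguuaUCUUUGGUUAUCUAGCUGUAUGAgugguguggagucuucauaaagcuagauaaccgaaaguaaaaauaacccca
Mir9-2: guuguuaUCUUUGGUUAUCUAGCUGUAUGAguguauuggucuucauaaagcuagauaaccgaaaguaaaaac
Mir9-3: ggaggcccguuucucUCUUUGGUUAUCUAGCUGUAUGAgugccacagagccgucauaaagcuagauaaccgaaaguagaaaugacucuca

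All 3 hairpins hold the same 23 bases, at positions 16 to 38 of Mir9-1, 8 to 30 of Mir9-2 and 16 to 38 of Mir9-3, counted from the 5′ end. Mir9-1 lies at chr3:88215598-88215686 on the plus strand, in an intron of the long non-coding RNA gene Gm3764, and a miRNA gene on the opposite strand, Gm25641, overlaps it in the GENCODE M21 annotation. Mir9-2 lies at chr13:83738814-83738885 on the plus strand, in an exon of the long non-coding RNA gene C130071C03Rik. Mir9-3 lies at chr7:79505264-79505353 on the plus strand, in an intron of its host gene Mir9-3hg. Next to the mature strand, Mir9-1 and Mir9-2 share 7 bases before it and 3 bases after it, whereas Mir9-3 shares with either of them 0 bases before it and 3 bases after it. A read of the mature strand alone therefore has the same sequence whichever hairpin it came from.

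No other mature miRNA in the files was close in sequence. A RefSeq mature sequence was found for 895 of the 1059, and 0 others shared the seed of miR-9-5p. The nearest sequence differed from it by 8 single-base edits, and the longest run of bases in common was 9, with miR-708-5p. The other arm, miR-9-3p, and miR-9b are not analysed here, and all shares below are shares of the counts on the mature miRNAs of these files, of which 109 are named as 3p arms. For miR-124, miR-137, miR-92b and miR-126a, among others, the files held a 5p row only. Ranks and shares are therefore relative to the rows held, and not to all miRNAs of the tissue.

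The 3 rows of miR-9-5p carried almost the same counts. In Rx-Dicer library 1 they held 183201, 183318 and 183187 counts, and in Rx-Dicer library 2 they held 151958, 151984 and 151965. In control library 1 the rows held 408934, 408938 and 408950 counts, and in control library 2 they held 483361, 483367 and 483378. The largest gap between rows of a library was 131 counts, or 0.0715% of the row, in Rx-Dicer library 1, and it was 0.0171%, 0.00391% and 0.00352% in Rx-Dicer library 2, control library 1 and control library 2. The rows are therefore near-copies of one measurement, and how much each hairpin contributes cannot be told apart from them. The row whose sum over the 4 libraries was highest (1227607 counts, against 1227454 and 1227480) was used, and 1 row was chosen in the same way for every other miRNA with several rows. When the rows were instead summed for every miRNA, miR-9-5p held 48.2%, 50.3%, 51.4% and 63.4% of the counts in Rx-Dicer libraries 1 and 2 and control libraries 1 and 2, so the handling of precursor rows alone moved its share by about 20 percentage points.

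The libraries differed in depth and in make-up before any comparison was made. Rx-Dicer libraries 1 and 2 held 651031 and 516517 counts on mature miRNAs, and control libraries 1 and 2 held 1299067 and 1133553. At least 1 count was found for 481, 461, 534 and 485 mature miRNAs in these libraries, and a count of 0 allows a share of up to 0.000461%, 0.000581%, 0.000231% and 0.000265%. No library was a copy of another, since the chi-square value over the 274 tested miRNAs (273 degrees of freedom) ran from 15733.8 between the mutant libraries to 69645.3 between the control libraries. These values grow with depth and serve only to show that no library repeats another. After the TMM scaling explained below, the median size of the log2 difference over all tested miRNAs was 0.42 between the control libraries and 0.29 between the shallower mutant libraries. Rx-Dicer library 2 stood apart in the summed share of the eye and sensory miRNAs, given below, though not in every member. The share, the fold change and the ratios to all other miRNAs are therefore also given without single libraries.

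Of these totals, miR-9-5p took 183318 counts in Rx-Dicer library 1, 151984 in Rx-Dicer library 2, 408938 in control library 1 and 483367 in control library 2. Its share was 28.2% (95% Wilson interval 28.0 to 28.3) and 29.4% (29.3 to 29.5) in the mutant libraries, and 31.5% (31.4 to 31.6) and 42.6% (42.6 to 42.7) in the control libraries. These intervals and the limits for a count of 0 cover counting error only, since copies made by PCR count like separate molecules. Both mutant libraries lay below both control libraries, the mutant libraries lay close together, and control library 2 stood well above the other libraries.

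**Figure D1:**
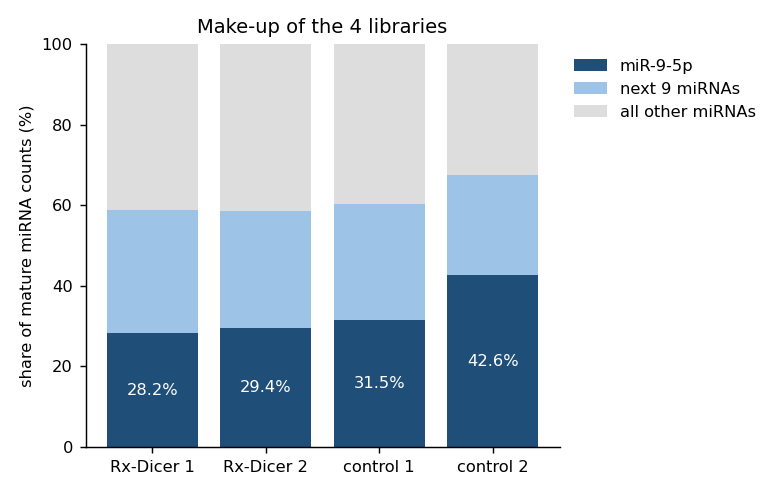
Stacked bars show the percent of all mature miRNA counts held by miR-9-5p, by the 9 miRNAs next in mean share, and by all other miRNAs in each of the 4 libraries. miR-9-5p held 28.2% and 29.4% in the Rx-Dicer libraries and 31.5% and 42.6% in the control libraries, about as much as or more than the next 9 together.

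The mean share was 28.8% ± 0.896 in Rx-Dicer and 37.1% ± 7.89 in control libraries (SD, n = 2 each), a difference of -8.27 percentage points. The exact two-sided permutation test gave p = 0.333, which is the smallest value that 2 libraries against 2 allow, so the test could not call a difference of any size. Control library 2 exceeded control library 1 by 11.2 percentage points, more than the difference between genotypes, whereas Rx-Dicer library 2 exceeded Rx-Dicer library 1 by 1.27. Without control library 2 the difference between genotypes was -2.69 percentage points, and without control library 1 it was -13.9.

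The share understates how uneven the libraries were, because miR-9-5p is a large part of its own denominator. Per count of all other miRNAs, there were 0.392 and 0.417 counts of miR-9-5p in the Rx-Dicer libraries and 0.459 and 0.743 in the control libraries. The means were 0.404 ± 0.0177 and 0.601 ± 0.201 (SD, n = 2 each; exact two-sided permutation p = 0.333), a ratio of 0.672, and control library 2 was at 1.62 times control library 1. Without control library 2 the ratio between genotypes was 0.880, without control library 1 it was 0.544, and without Rx-Dicer library 1 or 2 it was 0.693 or 0.652. On this scale, too, the control libraries differed by more (0.284) than the means of the genotypes did (-0.197, Rx-Dicer minus control).

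miR-9-5p ranked first in each of the 4 libraries, and miR-99b-5p, which is encoded in a cluster with let-7e and miR-125a, was next in each. miR-99b-5p held 5.54% and 5.77% of the counts in the Rx-Dicer libraries and 4.91% and 4.58% in the control libraries. miR-9-5p was thus at 5.08 and 5.10 times the level of miR-99b-5p in the Rx-Dicer libraries and at 6.42 and 9.31 times in the control libraries. In Rx-Dicer library 1 the 8 next most abundant miRNAs together reached the count of miR-9-5p, and it took 10 in Rx-Dicer library 2, 11 in control library 1 and 26 in control library 2. The smallest set of miRNAs holding 50% of the counts had 7, 7, 6 and 3 members in Rx-Dicer libraries 1 and 2 and control libraries 1 and 2, and with miR-9-5p left out it had 12 members in each library.

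The 10 miRNAs with the highest mean share held 58.8% and 58.4% of the counts in the Rx-Dicer libraries and 60.3% and 67.5% in the control libraries. Without miR-9-5p the other 9 held 30.7%, 29.0%, 28.9% and 24.9%. After miR-9-5p and miR-99b-5p, these were miR-541-5p, from the imprinted Dlk1-Dio3 cluster, miR-26a-5p, miR-30d-5p, miR-125b-5p, a relative of the worm timing miRNA lin-4, miR-20a-5p, from the miR-17 cluster, miR-100-5p, miR-99a-5p and miR-181b-5p. Each of them held between 1.70% and 4.94% of the counts of every library.

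Ratios of counts within a library do not depend on how libraries are scaled to each other, so miR-9-5p was also set against each of these miRNAs in turn. For miR-99b-5p, miR-541-5p, miR-20a-5p and miR-100-5p, the ratio was lower in both mutant libraries than in both control libraries. Per count of miR-20a-5p there were 9.14 and 8.47 counts of miR-9-5p in the Rx-Dicer libraries and 18.1 and 21.4 in the control libraries. Per count of miR-541-5p there were 5.69 and 6.87 in the Rx-Dicer libraries and 7.72 and 15.3 in the control libraries. For miR-100-5p the ratios were 8.13 and 13.0 in the Rx-Dicer libraries and 17.1 and 16.3 in the control libraries, so the order of the control libraries was turned there. Against the other 5, miR-26a-5p, miR-30d-5p, miR-125b-5p, miR-99a-5p and miR-181b-5p, the genotypes overlapped. For miR-99a-5p the ratio was 14.1 and 16.5 in the Rx-Dicer libraries and 11.8 and 14.5 in the control libraries, so both mutant values lay within or above the control values.

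**Figure D2:**
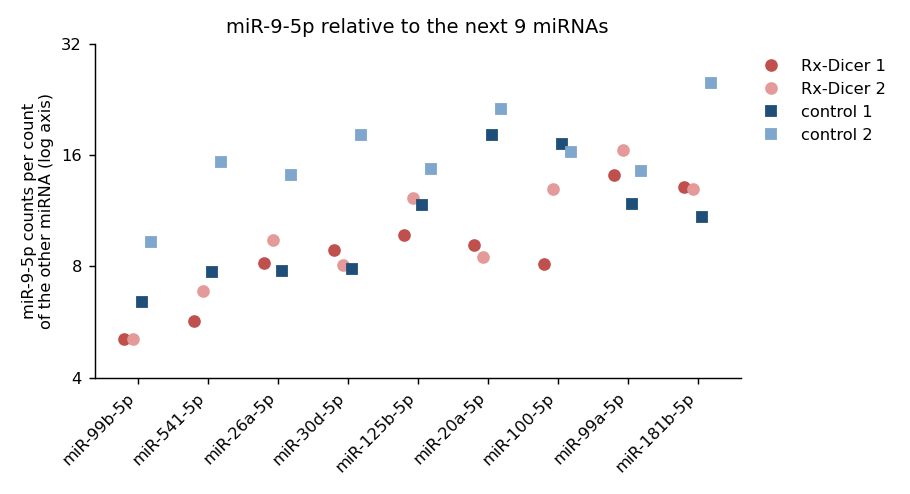
The log axis gives the counts of miR-9-5p per count of each of the 9 miRNAs next in mean share, with circles for the 2 Rx-Dicer libraries and squares for the 2 control libraries. Relative to miR-20a-5p the ratio was 9.14 and 8.47 in the Rx-Dicer libraries and 18.1 and 21.4 in the control libraries, whereas relative to miR-99a-5p the genotypes overlapped.

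Over all 273 other tested miRNAs, with 0.5 added to each count, miR-9-5p was lower in both mutant libraries than in both control libraries relative to 169 of them (61.9%), higher relative to 11 (4.03%), and overlapping relative to 93 (34.1%). When each tested miRNA was treated in the same way, the median miRNA was lower in this sense relative to 27 others and higher relative to 44, and 22 miRNAs were lower relative to more others than miR-9-5p was. Without control library 2, miR-9-5p was lower in both mutant libraries relative to 172 others and higher relative to 49, the median miRNA was lower relative to 86, and 62 miRNAs were lower relative to more others. Without control library 1, it was lower relative to 245 and higher relative to 12, with a median of 74 and 14 miRNAs above it. Without Rx-Dicer library 1 it was lower relative to 189 and higher relative to 19 (median lower 74, 41 miRNAs above it), and without Rx-Dicer library 2 it was lower relative to 203 and higher relative to 17 (median lower 79.5, 43 miRNAs above it). Within genotypes, the ratio was higher in control library 2 than in control library 1 relative to 226 of the 273 (82.8%) and higher in Rx-Dicer library 2 than in Rx-Dicer library 1 relative to 158 (57.9%), where the median miRNA was higher relative to 136.5 in each case, and 47 and 115 miRNAs, respectively, were higher relative to more others. Since the median differs between these measures, the counts within and between genotypes cannot be set against each other directly.

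For the comparison of genotypes across all miRNAs, counts were scaled by TMM, a method that sets the trimmed mean of log ratios between libraries to 0, and levels are stated in CPM, the count relative to the scaled size of its library. On this scale miR-9-5p was at 240963 and 259155 CPM in the Rx-Dicer libraries and at 339853 and 524056 CPM in the control libraries. The means were 250059 ± 12863 and 431955 ± 130251 CPM (SD, n = 2 each), and both mutant values lay below both control values. The fitted log2 fold change from control to Rx-Dicer was -0.79 (SE 0.27, 95% interval -1.43 to -0.15), which is 1.73-fold lower in the mutant, and it did not pass the threshold in edgeR's quasi-likelihood test over all tested miRNAs (adjusted p = 0.344). Its p before adjustment, 0.0220 in that edgeR fit, was the 17th smallest, and 20 miRNAs had a more negative log2 fold change.

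In the same fit, 7 of the 274 tested miRNAs (2.55%) were called lower in Rx-Dicer at an adjusted p under 0.05 by edgeR's quasi-likelihood test, 0 (0%) were called higher, as by DESeq2's Wald test, and at an unadjusted p under 0.05 the counts were 23 lower and 3 higher. The number called lower was 11 by DESeq2's Wald test, and it was 0 with total counts only, with the replicate number as a block and without either control library. The unadjusted counts in edgeR turned with the scaling, to 10 lower and 51 higher with total counts only. They were 15 lower and 22 higher with totals that leave out miR-9-5p, and 61 lower and 0 higher with red-cell miRNAs held at equal counts. With TMM scaling, values lower in both mutant libraries than in both control libraries, as for miR-9-5p, were found for 67 miRNAs (24.5%). Values higher in both were found for 49 (17.9%). Such a separation of the genotypes was therefore found for about 1 in 4 tested miRNAs, miR-9-5p among them. Between the control libraries the log2 difference of miR-9-5p was 0.62, against a median size of 0.42 over all tested miRNAs, and 80 of them differed more. Between the mutant libraries it was 0.11, against a median size of 0.29. In whole tissue, fewer cells that hold miR-9-5p and less miR-9-5p in each cell cannot be told apart.

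**Figure D3:**
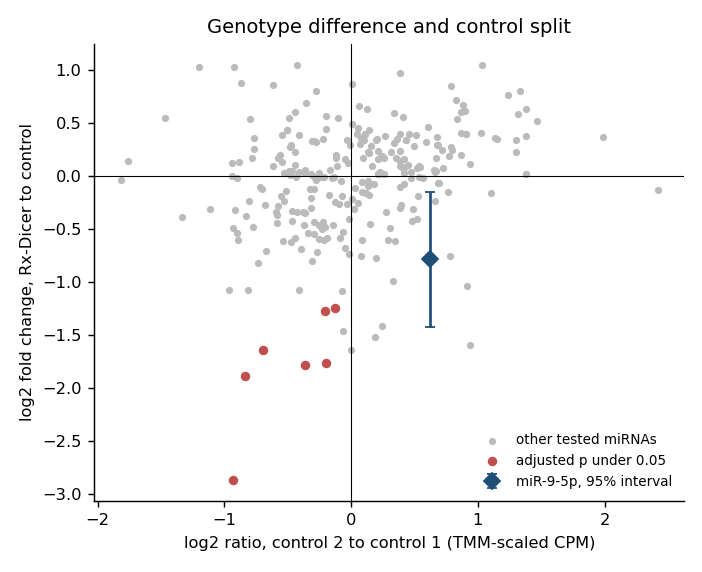
Each point is a tested miRNA, with the log2 ratio of control library 2 to control library 1 across and the log2 fold change from control to Rx-Dicer upwards, both after TMM scaling. miR-9-5p (diamond, with its 95% interval) is at 0.62 and -0.79, and the 7 miRNAs with an adjusted p under 0.05 are shown in red.

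Because miR-9-5p is so large a part of each library, it was asked how far the comparison depends on scaling and on its own row. When libraries were scaled by total counts only, the log2 fold change of miR-9-5p was -0.36 (95% interval -0.92 to 0.19), while the median over all tested miRNAs moved from 0.04 to 0.44. When its row was left out of the totals, its log2 fold change was -0.57 (-1.22 to 0.07) and the median was 0.26. DESeq2's size factors gave -0.74 with a median of 0.07, and upper-quartile scaling gave -0.69 with a median of 0.14. Holding the red-cell miRNAs at equal counts gave -1.19 (-1.78 to -0.59), with a median of -0.37 and an adjusted p of 0.0596 by edgeR's quasi-likelihood test. The value of miR-9-5p thus moved with the scaling, and both mutant libraries were below both control libraries under each of the 7 scalings. A scaling moves all miRNAs of a library by the same factor, so the distance of miR-9-5p from the median of all tested miRNAs (-0.83 to -0.81, log2) stayed nearly the same by construction and is no sign of stability.

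**Figure D4:**
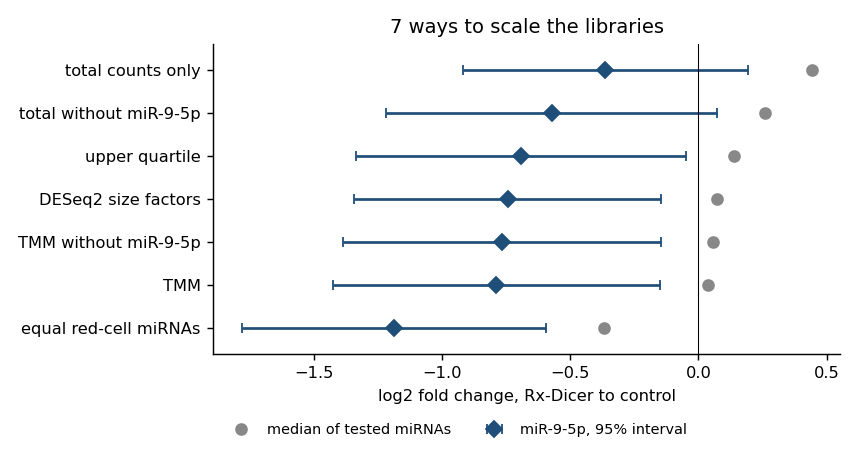
For each of 7 ways of scaling the libraries, the diamond and bar give the log2 fold change of miR-9-5p from control to Rx-Dicer with its 95% interval, and the grey point gives the median over the 274 tested miRNAs. Both move together, from -0.36 and 0.44 with total counts only to -1.19 and -0.37 with equal red-cell miRNAs.

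Leaving the row of miR-9-5p out of the totals shifted the log2 fold change computed from totals by -0.18 for every other miRNA and the log2 difference between the control libraries by 0.26. Of the next 9 miRNAs, none shifted either value by more than 0.025 in size (miR-20a-5p, 0.021 for genotype, and miR-30d-5p, -0.025 for the control libraries). With totals as the scale, a single row therefore set part of every fold change. TMM was less affected, since it leaves out rows at the extremes of log ratio or abundance: with control library 1 as the reference, 104, 98 and 101 of the 274 rows entered the factors of Rx-Dicer library 1, Rx-Dicer library 2 and control library 2, and miR-9-5p was in none of these sets.

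The row still changed a count of calls. With miR-9-5p left out before TMM scaling, the log2 fold changes of the others shifted by a median of 0.019 (range 0.016 to 0.023), the log2 fold change of miR-9-5p became -0.77, and the number called lower went from 7 to 4, all 4 of them among the 7. The 7 were 6 let-7 miRNAs and miR-98, which shares the let-7 seed, and are named here because they were called. The 3 that lost the call, let-7d-5p, let-7f-5p and let-7g-5p, had an adjusted p of 0.0472 with miR-9-5p in the scaling and 0.0503 without it by edgeR's quasi-likelihood test. let-7b-5p, let-7i-5p and miR-98-5p went from 0.0188 to 0.0183, and let-7c-5p from 0.0472 to 0.0455. let-7c-5p thus kept its call from the same adjusted p at which the other 3 lost theirs.

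The other abundant miRNAs gave fitted log2 fold changes on both sides of 0, and none passed the threshold by edgeR's quasi-likelihood test over the 274 tested miRNAs with TMM scaling. The most negative was -0.99 for miR-99a-5p, with an adjusted p of 0.124 by that test, but of 0.0041 by DESeq2's Wald test and of 0.0041 and 0.0277 by edgeR with TMM scaling without a count minimum and with every precursor row. Next were miR-26a-5p and miR-125b-5p, both at -0.50. miR-20a-5p was at 0.40 (SE 0.26, adjusted p = 0.606), and miR-541-5p at 0.03 (SE 0.25). miR-99b-5p, miR-30d-5p, miR-100-5p and miR-181b-5p lay between -0.44 and -0.07. Of these, miR-181b-5p moved to -0.08 without control library 1 and to -0.75 without control library 2. Of the 10 most abundant miRNAs, miR-9-5p and miR-99a-5p had the most negative values.

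The patterns most like that of miR-9-5p were sought among the 134 other tested miRNAs with at least 100 counts in every library, as the smallest distance between log2 CPM values over the 4 libraries after each miRNA was centred on its own mean. The nearest were miR-301a-5p (distance 0.312), from an intron of Ska2, miR-99a-5p (0.346), from the cluster that also holds let-7c, miR-10b-5p (0.367), from the HoxD cluster, miR-149-5p (0.408), from an intron of Gpc1, and miR-125b-5p (0.422). The sixth was at 0.496 and the median miRNA at 0.99, so these 5 do not stand clearly apart from the next. All of them were lower in both mutant libraries than in both control libraries, highest in control library 2, and none passed the threshold by edgeR's quasi-likelihood test over the 274 tested miRNAs with TMM scaling, although miR-99a-5p passed in the alternative fits named above. miR-99a-5p was at 17066 and 15672 CPM in the Rx-Dicer libraries and at 28771 and 36145 in the control libraries. miR-301a-5p was far less abundant, at 234 and 223 CPM in the Rx-Dicer libraries and at 312 and 382 in the control libraries. With 4 libraries the measure is a description of likeness only.

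**Figure D5:**
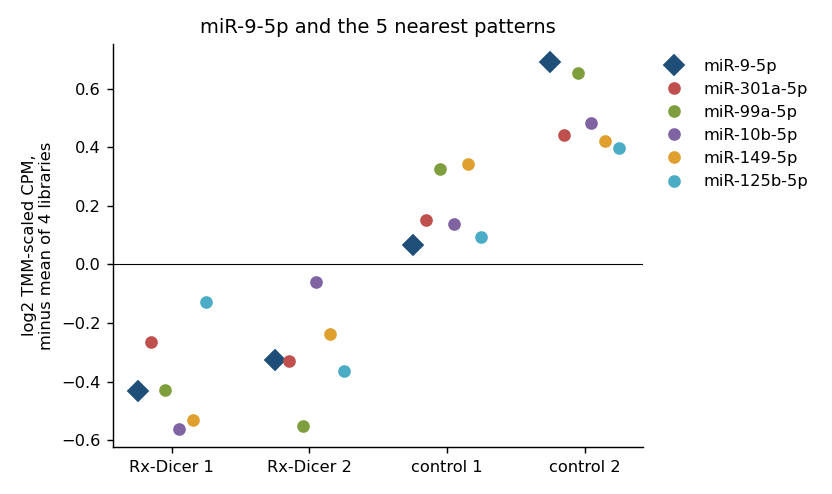
The log2 TMM-scaled CPM of miR-9-5p (diamonds) and of the 5 miRNAs nearest to it (circles) is shown in each library, minus the mean of each miRNA over the 4 libraries. All 6 lie below their means in both Rx-Dicer libraries and above them in both control libraries.

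Other miRNAs of neural tissue were read from a list of 11 mature miRNAs, of which 8 were tested. By edgeR's quasi-likelihood test, 0 of the 8 passed in either direction, as by DESeq2's Wald test, the smallest adjusted p was 0.385, and at an unadjusted p under 0.05 there was 1, which was lower (miR-124-5p). Over all 274 tested miRNAs, 2.55% were called lower and 0% higher. Before adjustment 23 passed 0.05 in the lower and 3 in the higher direction, so with TMM scaling the list's counts were near the background. That background turned with the scaling, to 10 lower and 51 higher with total counts only. It was 61 lower and 0 higher with red-cell miRNAs held at equal counts. The list's own counts were read with TMM scaling and DESeq2 only. The log2 fold changes of the 8 after TMM scaling ran from -0.72 to 0.23 with a median of -0.42, against 0.04 over all tested miRNAs. Of the 8, 6 were negative (45.6% of all tested miRNAs were). In 5 of the 8, both mutant libraries were lower than both control libraries (24.5% of all tested miRNAs were). The most negative was miR-124-5p, from the hairpin of the neuronal miRNA miR-124, at 195 and 205 CPM in the Rx-Dicer libraries and 359 and 297 CPM in the control libraries. The members with the highest counts were miR-125b-5p, given above, miR-181a-5p at -0.59 (SE 0.26), miR-7a-5p at -0.46 (SE 0.28) and miR-92b-5p at -0.38 (SE 0.33). Single libraries moved these values: miR-181a-5p was at -0.31 without control library 1 and at -0.83 without control library 2. For miR-7a-5p the value was -0.80 without Rx-Dicer library 1 and -0.18 without Rx-Dicer library 2. miR-92b is a miRNA of neural progenitors like miR-9, and miR-92b-5p was the only row of it in the files. This arm was at 2244 and 2737 CPM in the Rx-Dicer libraries and at 4147 and 2336 CPM in the control libraries. Its genotypes thus overlapped, and control library 2 was not its highest.

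The summed share of the neural list, which leaves out miR-9-5p, was 6.46%, 5.12%, 6.61% and 5.67% of the counts in Rx-Dicer libraries 1 and 2 and control libraries 1 and 2. Of the counts without miR-9-5p, the same list held 9.0%, 7.25%, 9.65% and 9.89%. The list was thus lower in control library 2 than in control library 1 as a share of all counts, which include miR-9-5p, and slightly higher as a share of the counts without it. The neuron markers miR-124-5p and miR-137-5p together held 0.0241%, 0.0248%, 0.0346% and 0.0247%. The progenitor list (miR-9-5p with miR-92b-5p) held 28.4%, 29.7%, 31.9% and 42.8%, nearly all of it miR-9-5p itself. Apart from miR-9-5p, the labelled tissue was checked only by miR-92b-5p (1707, 1605, 4990 and 2155 counts) and by the neural and neuron lists, which were detected in every library. These are not separate checks, since the neural list itself holds miR-92b-5p, miR-124-5p and miR-137-5p. Its most abundant member was miR-125b-5p, with 2.90%, 2.39%, 2.68% and 2.91% of the counts. Detection of these lists is therefore a weak check of the tissue.

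The summed shares of markers of other cells differed between libraries, and their part in the level of miR-9-5p was not tested. In each of these lists 0 tested members passed in either direction by edgeR's quasi-likelihood test or DESeq2's Wald test, and at an unadjusted p under 0.05 in edgeR there was 1 member in all of them together, miR-204-5p of the eye and sensory list, which was lower (named after its values were seen). Against a background of 2.55% called lower and 0% called higher, lists of 1 to 6 tested members give little room for a call, and nothing is read from these counts. Red-cell miRNAs (4 members) held 1.65% and 1.80% of the counts in the Rx-Dicer libraries and 1.00% and 0.964% in the control libraries, with miR-486a-5p as the most abundant. miR-486a-5p and miR-486b-5p carried the same count in every library, and with that count taken once the list held 0.888% and 0.966% in the Rx-Dicer libraries and 0.531% and 0.518% in the control libraries. Mesenchyme miRNAs (6 members, miR-199a-5p the most abundant) held 1.89% and 1.81% in the Rx-Dicer libraries and 0.612% and 1.29% in the control libraries. Both lists had higher summed shares in both mutant libraries. The mesenchyme list was at 2.10 times in control library 2 what it was in control library 1, whereas the red-cell list was at 0.961 times. After TMM scaling, 2 of the 6 mesenchyme and 3 of the 4 red-cell members were higher in both mutant libraries, against 17.9% of all tested miRNAs. Their log2 fold changes ran from 0.34 to 0.81 for mesenchyme and from -0.16 to 0.56 for red cells. The lists were also higher in both mutant libraries as shares of the counts without miR-9-5p, at 1.24% and 1.37% against 0.776% and 0.903% for red cells with the shared count taken once and at 2.63% and 2.57% against 0.893% and 2.24% for mesenchyme.

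Eye and sensory miRNAs (5 members, miR-182-5p the most abundant) held 0.166% and 1.61% in the Rx-Dicer libraries and 0.320% and 0.574% in the control libraries, so Rx-Dicer library 2 was far above the others. In Rx-Dicer libraries 1 and 2, miR-182-5p was at 762 and 7873 CPM and miR-183-5p at 553 and 6152 CPM after TMM scaling. miR-204-5p of the same list was instead lowest in Rx-Dicer library 2. It was at 88.1 and 81.8 CPM in the Rx-Dicer libraries and at 135 and 155 CPM in the control libraries. Epithelial miRNAs (7 members, led by miR-205-5p, with miR-200c-5p, miR-203-5p and miR-429-5p at 0 in every library) held 0.0275%, 0.0918%, 0.0186% and 0.0348%, again highest in Rx-Dicer library 2. The endothelial miR-126a-5p held 0.0504%, 0.0277%, 0.0235% and 0.0328%. All 7 epithelial rows and the endothelial row were 5p arms. Their shares, the counts of 0 included, therefore say nothing about the 3p arms of these hairpins, and the amount of these cells was not tested. The miRNAs of the Hox clusters, which mark posterior tissue, held 0.0614%, 0.0641%, 0.0547% and 0.0574% (5 members, miR-10a-5p the most abundant). These shares were higher in both mutant libraries, but as shares of the counts without miR-9-5p (0.0855%, 0.0908%, 0.0799% and 0.10%) the genotypes overlapped, and 3 of the 4 tested members had a negative log2 fold change after TMM scaling (median -0.33). The share of miR-9-5p differed by 1.27 percentage points between the mutant libraries, and without Rx-Dicer library 2 the difference between genotypes was -8.90 percentage points.

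Leaving out single libraries moved the log2 fold change of miR-9-5p most for the control libraries. Without control library 1 it was -1.03 (adjusted p = 0.322 by edgeR's quasi-likelihood test), and without control library 2 it was -0.48 (adjusted p = 0.283). Without Rx-Dicer library 1 or 2 it was -0.73 (adjusted p = 0.986) or -0.83 (adjusted p = 0.928). In these fits one genotype had a single library, which was assumed to vary like the other genotype. The fold change was negative in 16 of the 16 alternative fits, from -1.19 to -0.36, and the adjusted p was under 0.05 in 1 of them.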

How the data were processed

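The authors prepared small RNA libraries with the NEB Next Small RNA kit, sequenced 75-base single-end reads on a HiSeq 2500 and counted them with miRDeep2 against mm10 and miRBase version 22; its version and mismatch settings are not given in the sources used here. The deposited values are whole-number counts, 1 for each mature miRNA on each precursor, and were not normalized. A read can be counted on every precursor it matches, so the row with the highest total was kept for each mature miRNA.

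The test, on mature miRNAs reaching 10 counts in 2 or more libraries, was edgeR's quasi-likelihood test with TMM scaling (R 4.3.3 with edgeR 4.0.16 and limma 3.58.1), genotype as the only factor and Benjamini-Hochberg adjustment (threshold 0.05). Alternatives were other scalings, DESeq2's Wald test (DESeq2 1.42.0), other count minimums, all or summed precursor rows, the replicate number as a block and each library left out. Shares were compared by exact permutation (scipy 1.17.1, Python 3.11.15). Scripts were tested on simulated data.

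The named miRNAs were miR-9-5p, others of the stems miR-9 and miR-9b or of its seed (0 found), the 10 of highest mean share, the 5 nearest in pattern, and up to 4 of highest count from the neural list. Members and lists, markers included, were chosen with earlier results of these data known.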

Additional observations from a re-analysis of the deposited data

How the results depend on the processing

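The log2 fold change of miR-9-5p passed the threshold only without a count minimum (-0.96, adjusted p = 0.0146 by edgeR's quasi-likelihood test over 634 miRNAs); over the 16 alternatives the adjusted p ran from 0.0146 to 0.986. It was -0.74 with DESeq2's Wald test (adjusted p = 0.131), -0.82 with every precursor row (0.0832) and -1.03 to -0.48 with 1 library left out. The number of miRNAs called lower was 7, and it was 10 with a count minimum of 100 and 8 with summed precursor rows. It was 4 with DESeq2's size factors, 0 with total counts only, 3 with the upper quartile, 11 with equal red-cell miRNAs, 3 with totals without miR-9-5p, 4 with TMM without miR-9-5p, 11 with DESeq2's Wald test, 14 without a count minimum, 11 with every precursor row, 0 with the replicate block, and 0 to 5 with 1 library left out (0 without either control library). None was called higher under any of these. The median log2 fold change of 0.04 became 0.072 with DESeq2's size factors, 0.44 with total counts, 0.14 with the upper quartile, -0.37 with red-cell miRNAs, 0.26 with totals without miR-9-5p and 0.055 with TMM without miR-9-5p. The labels give replicate numbers without saying whether same-numbered libraries belong together. The deviations of same-numbered libraries had r = 0.079 over 274 miRNAs, which cannot decide this with 2 libraries per genotype. With the replicate block miR-9-5p was at -0.76 (adjusted p = 0.501 by edgeR's quasi-likelihood test). miR-99a-5p (-0.99) passed with DESeq2's Wald test (adjusted p = 0.0041), without a count minimum (0.0041), with every precursor row (0.0277) and with equal red-cell miRNAs (0.0386), the last 3 by edgeR. Signs turned for 6 named miRNAs. miR-99b-5p was at 0.25 with total counts and 0.069 with totals without miR-9-5p. miR-541-5p was at -0.38 with red-cell miRNAs, -0.13 without a count minimum, -0.0039 with every precursor row and -0.18 to 0.26 with 1 library left out. miR-30d-5p was at 0.097 with total counts and -0.59 to 0.069 with 1 library left out. miR-20a-5p was at -0.011 with red-cell miRNAs. miR-100-5p was at 0.36 with total counts, 0.033 with the upper quartile, 0.15 with totals without miR-9-5p and -0.38 to 0.28 with 1 library left out. miR-92b-5p was at -0.78 to 0.13 with 1 library left out. Leaving out libraries for the ratios and counting miR-486 once were chosen after the data were seen. The cause of these changes was not tested. At these depths the Wilson intervals of the share of miR-9-5p in single libraries were narrower than the differences between libraries.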
